A study of Mus musculus with 107 samples.

Results

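The 45 genes described here act in the repair of DNA adducts and crosslinks, and were chosen by name. They comprise 11 nucleotide excision repair genes (Xpa, Xpc, Ddb1, Ddb2, Ercc1 to Ercc6 and Ercc8), 7 Fanconi anemia genes (Fanca, Fancc, Fancd2, Fance, Fancf, Fancg and Fancl) and 6 homologous recombination genes (Brca1, Brca2, Rad52, Rad54l, Xrcc2 and Xrcc3). Others are 5 translesion synthesis genes (Polk, Polh, Rev1, Rev3l and Rad18), 9 base excision and direct repair genes (Xrcc1, Lig1, Lig3, Mgmt, Mpg, Ogg1, Ung, Apex1 and Polb) and 5 genes of break sensing and signalling (Atm, Atr, Nbn, Mre11a and Rad50). Msh6 of mismatch repair and Rrm2b of nucleotide supply complete the set. Each gene was represented by its probe set with the highest mean signal. Of the 45 genes, 44 had a probe set of their own, among 18193 genes in all, and 41 passed the minimum signal of the tests in the mustard series, among 14623. Ercc6, Rad52 and Mgmt were below that minimum, and Xrcc2 was not analysed here.

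RNA came from ear skin of mice 24 h after exposure to sulfur mustard, a bifunctional alkylating agent, and was hybridized to a pair of Affymetrix arrays, A and B. Mustard ears are right ears given 0.08 mg (0.5 µmol), dissolved in 5 µL of methylene chloride. Pretreated ears had a drug in ethanol 15 min before the same mustard dose. The drugs were dimercaprol at 6.25 mg (50.3 µmol), a dithiol, indomethacin at 1.34 mg (3.74 µmol), a cyclooxygenase inhibitor, and octylhomovanillamide, a capsaicin analog, at 0.6 mg by one label and 0.585 mg (1.995 µmol) by another. Both arrays held 5 mustard, 6 dimercaprol-then-mustard, 6 indomethacin-then-mustard and 5 octylhomovanillamide-then-mustard ears, against 21 left ears with methylene chloride alone. Pretreated ears were right ears too, so mustard and the side of the ear cannot be told apart. Of the 21 left ears, 17 came from animals whose right ear, with mustard, was also hybridized. Animals never given mustard, numbered apart, were on array A only: 4 dimercaprol, 4 indomethacin, 5 octylhomovanillamide and 3 ethanol ears, and 5 ears of 3 naive animals. The ethanol ears were left ears of animals 507, 515 and 520, whose right ears had dimercaprol, indomethacin and octylhomovanillamide in that order. Strain, sex and age are not given in the sources used here. Mustard ears are labelled without ethanol, so a drug and its ethanol cannot be told apart in the comparisons of pretreated with mustard ears.

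Sulfur mustard adds its chloroethyl arms to guanine and adenine, giving adducts on single bases as well as crosslinks between the strands. Adducts are cut out by base excision, which starts with a glycosylase, or by nucleotide excision, which starts with recognition of a distorted helix and ends with incision on both sides. Interstrand crosslinks are unhooked during replication under control of the Fanconi anemia proteins, bypassed by translesion polymerases and finished by homologous recombination.

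Promoters were listed in the RefSeq table (GRCm38.p6) for 35 of the 45 genes, each covering 250 bases before and 50 after the start. Those of Polk, Ercc5 and Rev1 are printed because their RNA was above the methylene chloride level in every mustard group, and that of Brca2 because its RNA was above it in only some of them. The Polk window is chr13:96519138-96519437 (minus strand), the first of 2 listed, and capitals mark a match to the p53 half-site. The Ercc5 window is chr1:44147494-44147793 (plus strand), with a CCAAT box in capitals. The Rev1 window is chr1:38129617-38129916 (minus strand) and holds none of the capitalised motifs. The Brca2 window is chr5:150522371-150522670 (plus strand), with an E2F match in capitals.
Polk: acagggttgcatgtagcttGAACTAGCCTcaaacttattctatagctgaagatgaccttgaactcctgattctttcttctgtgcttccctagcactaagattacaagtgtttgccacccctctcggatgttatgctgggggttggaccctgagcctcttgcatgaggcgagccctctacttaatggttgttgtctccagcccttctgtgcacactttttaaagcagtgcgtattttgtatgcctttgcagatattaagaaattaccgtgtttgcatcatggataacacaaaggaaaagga
Ercc5: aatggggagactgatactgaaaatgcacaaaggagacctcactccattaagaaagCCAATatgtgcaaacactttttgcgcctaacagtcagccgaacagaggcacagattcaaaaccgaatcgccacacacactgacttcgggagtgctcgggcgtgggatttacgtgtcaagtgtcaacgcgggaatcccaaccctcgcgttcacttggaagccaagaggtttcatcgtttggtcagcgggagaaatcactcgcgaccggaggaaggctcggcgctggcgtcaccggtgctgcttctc
Rev1: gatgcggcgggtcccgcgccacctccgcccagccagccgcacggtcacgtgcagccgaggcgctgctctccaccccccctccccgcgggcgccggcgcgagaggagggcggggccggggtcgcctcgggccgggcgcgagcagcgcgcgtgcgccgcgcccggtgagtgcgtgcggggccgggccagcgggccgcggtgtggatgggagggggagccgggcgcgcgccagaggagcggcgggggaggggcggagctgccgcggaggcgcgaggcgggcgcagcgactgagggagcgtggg
Brca2: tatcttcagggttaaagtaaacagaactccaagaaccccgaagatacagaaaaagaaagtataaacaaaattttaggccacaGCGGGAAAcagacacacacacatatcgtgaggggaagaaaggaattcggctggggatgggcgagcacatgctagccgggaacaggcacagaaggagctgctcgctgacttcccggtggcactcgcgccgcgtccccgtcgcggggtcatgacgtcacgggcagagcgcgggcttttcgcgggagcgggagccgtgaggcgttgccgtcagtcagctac
Both strands were searched, and none of the marked matches in these 4 windows overlaps another. The p53 half-site was found in 3 of the 35 promoters and in 8.37% of all 27025 promoters in the table. The E2F motif (TTTCCCGC, TTTCGCGC, TTTGCCGC or TTTGGCGC) was found in 3 of the 35 and in 2.32% of all, and CCAAT in 19 of the 35 and in 37.9% of all. Matches of letters do not show that a factor was bound.

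Arrays were compared after scaling each to a trimmed mean of 500, and signals below are these scaled signals in arbitrary units, which do not compare between genes. Within a group each ear came from a different animal, except the naive ears. Trimmed means before scaling spanned 66.9 to 268 on array A and 18.8 to 52.0 on array B, with mustard ears 5 and 37 among the dim ones. The 3' over 5' Gapdh signal, as a log2 ratio, was 0.30 ± 0.38 in mustard ears (SD, n = 5) and −0.06 ± 0.13 in methylene chloride ears (SD, n = 21) on array A. Ears 5 and 37 carried the mustard mean, at 0.63 and 0.78, with the other 3 mustard ears between −0.05 and 0.08. Neutrophil markers summed to between 5391 and 43066 in mustard ears, against 619 to 1347 in methylene chloride ears. The lowest mustard sum was that of ear 36, with the others between 32055 and 43066. Of the neutrophil markers, 5 of 6 were called higher (17.4% of all genes tested were called higher and 22.6% lower). The sum mostly follows S100a8, averaging 14800 in mustard and 236 in methylene chloride ears, and S100a9 (13149 and 225). Other listed markers were lower in signal, with Csf3r at 298 and 85.9 and Mmp8 at 97.0 and 103. Basal keratinocyte markers summed to between 41645 and 66136 in mustard ears, against 52679 to 80193 in methylene chloride ears, with 2 of 8 called higher and 4 lower. Their part in the results below was not tested, and in such a tissue fewer cells of a type and less RNA per cell cannot be told apart.

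Mustard against methylene chloride asks which repair genes differed in RNA 24 h after exposure. Of the 41 genes tested, 10 rose and 8 fell at an adjusted p under 0.05 in limma, or 43.9%, against a background of 40.0% of all genes tested (17.4% higher and 22.6% lower). The share lies near the background and is not a result about repair genes as a group, whose median log2 fold was −0.05. The sizes were uneven: Polk, Ercc5 and Ercc1 rose more than 2-fold, and Xpc fell by 0.99 on the log2 scale. Changes ran in opposite directions within translesion synthesis (2 rose and 1 fell of 5) and within nucleotide excision repair (3 rose and 3 fell of 10). With the dim mustard ears 5 and 37 left out, 10 genes were called, 8 higher and 2 lower, and without ear 37 alone 11 were called. The split of 10 higher and 8 lower was 11 and 5 after quantile normalization. It was 3 and 11 without rescaling, a setting under which 19 of the genes passed the minimum signal. There the folds of Msh6, Fanca and Ercc3 changed sign, and the median of all probe sets was −0.61 on array A and −0.66 on array B. With rescaling that median was −0.01 on array A and 0.14 on array B. The share of all genes called was not computed for these alternatives.

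**Figure D1:**
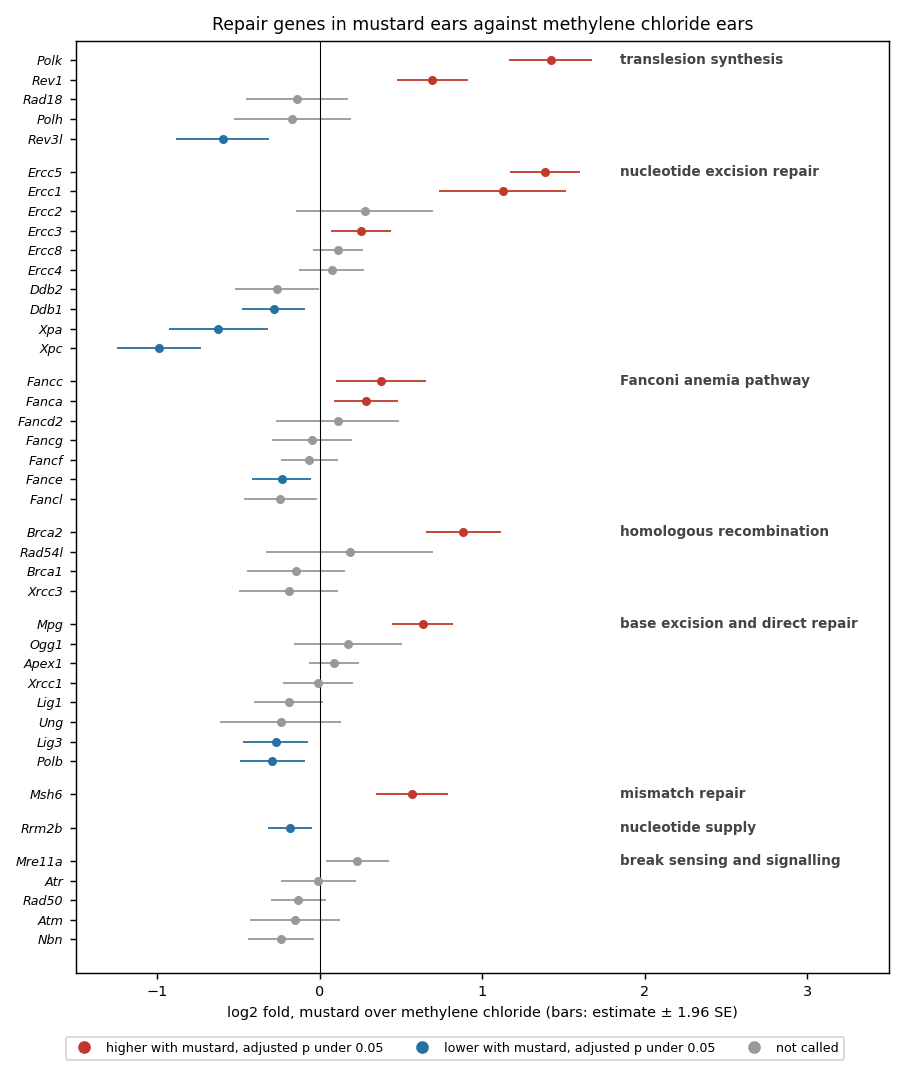
Log2 fold of the 41 repair genes tested, mustard over methylene chloride, grouped by role, with points at the estimate and bars of the 95% interval. Red and blue points are called higher and lower at an adjusted p under 0.05, grey points are not called. Polk (1.42) and Ercc5 (1.39) lie farthest right and Xpc (−0.99) farthest left.

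Polk encodes DNA polymerase kappa, which bypasses bulky guanine adducts and which has been described as inducible by p53 in mouse cells. Its signal was 476, 581, 670, 599 and 517 in the 5 mustard ears, against 136 to 263 (median 201) in 21 methylene chloride ears. All 5 mustard ears were above every methylene chloride ear, and the log2 fold was 1.42 ± 0.13 (SE, adjusted p = 2.6e-11). By p it ranked 27 of 14623 genes. A second Polk probe set also rose, by 0.47 ± 0.12 (adjusted p = 0.00109), so the 2 probe sets differ in size.

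Rev1, a deoxycytidyl transferase that also serves as a scaffold for the other bypass polymerases, had 359, 290, 320, 441.5 and 258 in mustard ears, against 147 to 268 (median 206) in methylene chloride ears. Mustard ears were above all methylene chloride ears in 4 of 5 cases, and the log2 fold was 0.69 ± 0.11 (adjusted p = 2.9e-06). Rev3l, the catalytic subunit of polymerase zeta that extends from bypassed lesions, went the other way. It had 405, 360, 362, 903 and 331 in mustard ears, against 516 to 930 (median 655) in methylene chloride ears. One mustard ear, 36, lay near the top of the methylene chloride range and the other 4 lay below all of it. Ear 36 was also the mustard ear with the lowest neutrophil marker sum. The log2 fold was −0.60 ± 0.15 (adjusted p = 0.000938), and −0.38 (adjusted p = 0.109) without ears 5 and 37. Of 2 Rev3l probe sets kept, 1 was called. Polh, the polymerase that bypasses ultraviolet dimers, and Rad18, the ubiquitin ligase that recruits it, were not called (log2 folds −0.17 and −0.14).

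In nucleotide excision repair, Ercc5 and Ercc1 of the incision step rose. Ercc5 encodes the nuclease XPG, which cuts on the 3' side of a lesion. It had 627, 837, 886, 792 and 893 in mustard ears, against 230 to 402 (median 297) in methylene chloride ears. No mustard ear overlapped the methylene chloride ears, and the log2 fold was 1.39 ± 0.11 (adjusted p = 5.32e-13, rank 11 of 14623 by p). Its weak second probe set, at 0.58 ± 0.33, was not called.

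Ercc1 forms with Ercc4 (XPF) the nuclease that cuts on the 5' side and also acts on crosslinks. Its probe set on array B had 6217, 10610, 7496, 3309 and 8684 in mustard ears, against 1749 to 4282 (median 3163) in methylene chloride ears. Mustard ear 36 stayed within the methylene chloride range and the other 4 were above it, with a log2 fold of 1.13 ± 0.20 (adjusted p = 2.4e-05). The suffix of that probe set marks probes that match several transcripts. A probe set of Ercc1 on array A without that suffix gave 1.45 ± 0.19 (adjusted p = 6.39e-08). Of 3 Ercc1 probe sets kept, 2 were called. The partner Ercc4 was not called (0.07), although another of its 4 kept probe sets was called lower. Ercc3, a helicase subunit of TFIIH, rose by 0.25 ± 0.09 (adjusted p = 0.0266).

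Xpc and Xpa of the same pathway fell. Xpc, the helix distortion sensor of global genome repair, had 204, 177, 215, 384 and 296 in mustard ears, against 418 to 729 (median 489) in methylene chloride ears. All 5 mustard ears were below every methylene chloride ear, and the log2 fold was −0.99 ± 0.13 (adjusted p = 8.55e-08). Xpa, which verifies the lesion, had 198, 156, 132, 158 and 168 in mustard ears, against 129 to 379 (median 276) in methylene chloride ears. Its mustard ears lay at the low end of the methylene chloride range without leaving it (log2 fold −0.62 ± 0.16, adjusted p = 0.00116). Ddb1, the adaptor of the damage-binding ubiquitin ligase, fell by 0.28 on the log2 scale (adjusted p = 0.0291), but the same probe set on array A gave −0.11 (adjusted p = 0.352). Its partner Ddb2 was at −0.26 ± 0.13 and not called (adjusted p = 0.101), while a second Ddb2 probe set fell by 0.39 on the log2 scale (adjusted p = 0.00685). Ercc2 and Ercc8 were not called.

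**Figure D2:**
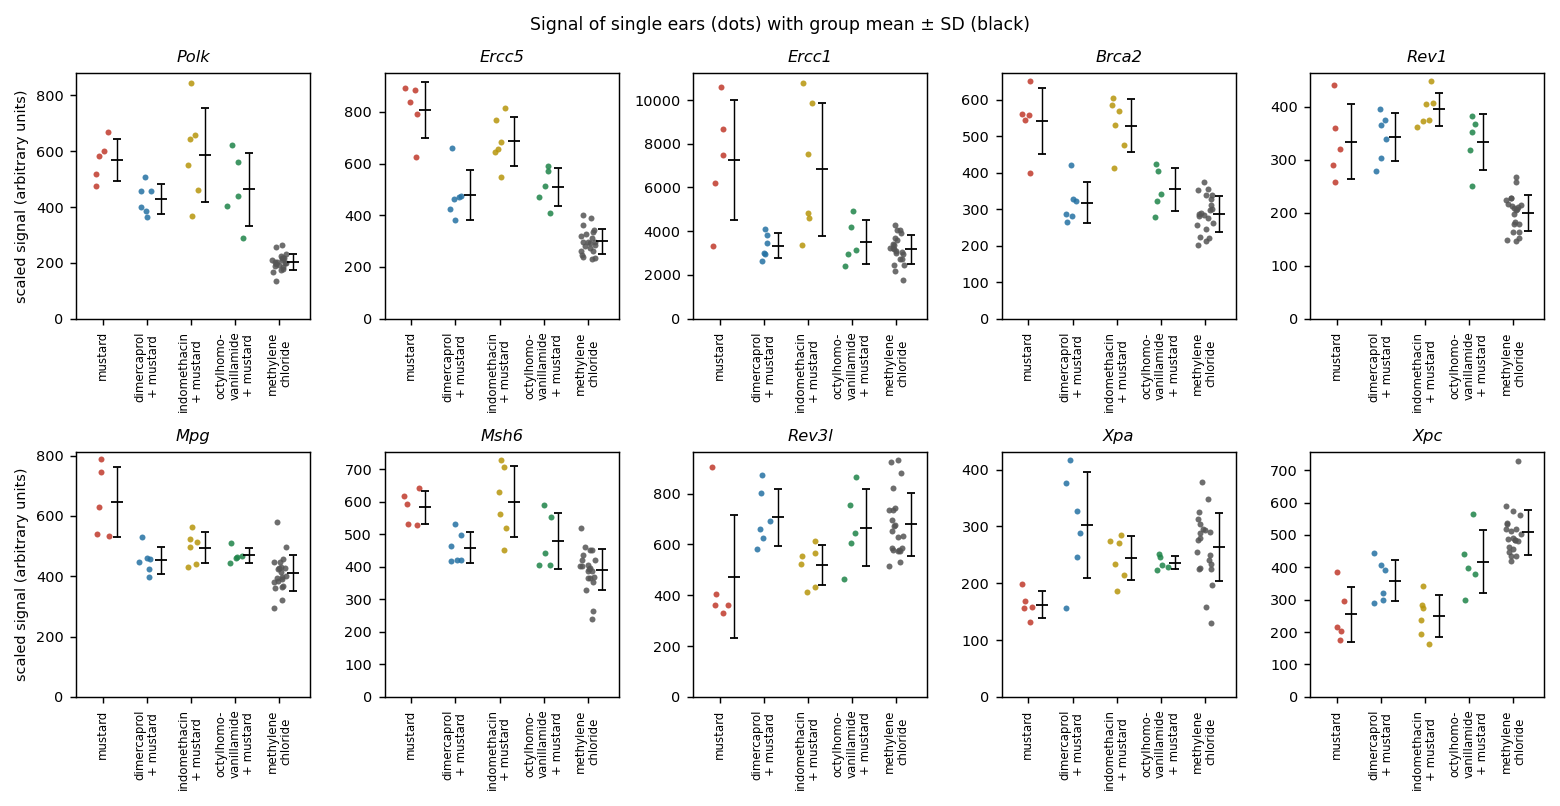
Scaled signal (arbitrary units, linear axis from 0) of single ears for the 10 genes called in mustard ears with a log2 fold of at least 0.5 in size. Dots are ears of the mustard, 3 pretreated and methylene chloride groups, and black bars are mean ± SD. Polk is above every methylene chloride ear in all 17 pretreated ears and Ercc5 in all but 1, while Brca2 and Ercc1 return towards them after dimercaprol and octylhomovanillamide.

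Among crosslink and recombination genes the main change was in Brca2, which acts in homologous recombination. It had 559, 545, 650, 398 and 560 in mustard ears, against 202 to 374 (median 287) in methylene chloride ears. The groups did not overlap (log2 fold 0.88 ± 0.12, adjusted p = 9.6e-08). Brca1, Rad54l and Xrcc3 were not called, with log2 folds between −0.19 and 0.18, although the other of 2 kept Xrcc3 probe sets was called lower. Of 7 Fanconi anemia genes, the core complex members Fancc (0.38 ± 0.14) and Fanca (0.28 ± 0.10) rose and Fance (−0.23 ± 0.09) fell. A second probe set of Fancc was at −0.15 and not called, and of 2 kept Fance probe sets 1 was called. The called Fance probe set carries the same suffix as the Ercc1 probe set on array B. None of the calls of Fancc, Fanca and Fance remained without mustard ears 5 and 37. Fancd2, the protein the complex ubiquitylates, was at 0.11 and not called, nor was the ubiquitin ligase gene Fancl at −0.24.

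In base excision, Mpg stood apart as the glycosylase that removes alkylated purines. It had 539, 533, 744, 628 and 789 in mustard ears, against 295 to 580 (median 399) in methylene chloride ears. Mustard ears exceeded all methylene chloride ears in 3 of 5 cases (log2 fold 0.63 ± 0.09, adjusted p = 7.6e-07), and a second Mpg probe set also rose (0.46 ± 0.16). Polb, the gap-filling polymerase, fell by 0.29 and Lig3, a ligase, by 0.27, each on the log2 scale. Neither call remained without ears 5 and 37. Of 4 Polb probe sets kept 1 was called, and of 3 Lig3 probe sets 2 were. Xrcc1, Lig1, Ogg1, Ung and Apex1 were not called.

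Msh6, the mismatch sensor that also meets alkylated bases, had 617, 528, 641, 592 and 533 in mustard ears, against 239 to 519 (median 395) in methylene chloride ears. The groups did not overlap, with a log2 fold of 0.57 ± 0.11 (adjusted p = 6.71e-05). With the animal as a block the fold was 0.40 (adjusted p = 0.0822). The damage-signalling genes Atm, Atr, Nbn, Mre11a and Rad50 had log2 folds between −0.24 and 0.23, with no call (2 at an unadjusted p under 0.05), although a second Atm probe set fell by 0.41 on the log2 scale (adjusted p = 0.023). Rrm2b, the ribonucleotide reductase subunit induced by p53 in human cells, was at −0.18 ± 0.07 (adjusted p = 0.0254, and 0.298 without ears 5 and 37). Of its 3 kept probe sets, 1 was called. Of 5 mustard ears, 4 were below and 1 was above every methylene chloride ear. With the animal as a block, 12 of the 41 genes were called, and the calls of Fanca, Fancc, Ddb1, Lig3, Polb and Rrm2b were lost as well as that of Msh6 (adjusted p between 0.0802 and 0.589 for the 7). The share of all genes called with the block was not computed.

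Other genes of the same processes were counted from lists, beside a background of 40.0% of all genes called (17.4% higher and 22.6% lower). A share near it is not a result about a list. Of 16 p53 target genes kept, 14 rose and 1 fell, with a median log2 fold of 1.45. They included Pmaip1 at 3.00, Plk2 at 2.36 and Mdm2 at 1.95, while Sesn1 fell by 1.33 on the log2 scale. Of 23 cell cycle genes, 2 rose (Rrm2 at 0.87 and Tpx2 at 0.61) and 12 fell, among them Bub1b at −2.24, Ccnb2 at −2.03 and Mki67 at −1.42. The damage response genes were mixed. Other nucleotide excision genes gave 3 rises and 4 falls of 13, with the Xpa-binding protein gene Xab2 at 0.89, the Xpc partner Rad23b at 0.57 and the single-strand binding subunit Rpa2 at −0.59. Other crosslink and recombination genes gave 1 rise and 3 falls of 16, with Slx4 at 0.34, Fancb at −2.10 and the helicase gene Wrn at −0.79. The 2 mismatch repair genes called of 4 fell, Msh3 by 1.62 and Pms1 by 0.96 on the log2 scale. Some genes named in this paragraph have probe sets whose suffix marks probes that may match several transcripts. They are Rrm2, Tpx2, Xab2 and Rad23b among the rises and Bub1b and Sesn1 among the falls.

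Other base excision and direct repair genes gave 2 rises of 10, the demethylase gene Alkbh2 at 0.77 and the endonuclease gene Apex2 at 0.52. The background for this and the following lists is again 40.0% of all genes (17.4% higher and 22.6% lower). Of 7 other translesion genes, Ube2a rose by 0.20 and 4 fell, with Shprh at −0.75, the Rad18 partner Ube2b at −0.38 and the polymerase zeta subunit Mad2l2 at −0.31. The end joining genes Prkdc (−0.93) and Xrcc4 (−0.38) fell and the other 4 tested were not called. Of 15 checkpoint genes, Rad9a rose by 0.42, and Wee1 (−0.58) and Topbp1 (−0.47) fell. Of the genes named from these lists, Rpa2, Slx4, Alkbh2, Apex2, Mad2l2, Rad9a, Wee1 and Topbp1 were not called without mustard ears 5 and 37 (adjusted p between 0.0931 and 0.611). With the animal as a block the same genes except Rpa2, and also Ube2a and Pms1, were not called (adjusted p between 0.0526 and 0.425).

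Pretreated ears were compared with mustard ears to ask whether a drug given before mustard went with a different repair gene level. After dimercaprol 4 of 41 genes were higher and 5 lower than in mustard ears, or 22.0%, against a background of 25.2% of all genes (15.5% higher and 9.71% lower). After octylhomovanillamide 2 were higher and 4 lower (background 15.8%, 10.5% higher and 5.30% lower). After indomethacin 1 was higher (background 2.84%, 2.22% higher and 0.622% lower). These shares lie near or below their backgrounds and are not results about repair genes as a group. Calls depended on the block and on the mustard ears: with the animal as a block 1, 0 and 0 genes were called after dimercaprol, octylhomovanillamide and indomethacin, and without mustard ears 5 and 37 there were 3, 0 and 0. Without rescaling, 14 genes were higher and 0 lower after dimercaprol and 12 and 0 after octylhomovanillamide, and the directions of Brca2, Ercc5 and Mpg turned in both. After quantile normalization the splits were 3 and 8 for dimercaprol and 1 and 4 for octylhomovanillamide. No share of all genes called was computed for these alternative settings, so the repair gene counts have no background there.

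Ercc1 was 2655 to 4119 (median 3223) in 6 dimercaprol-then-mustard ears, against 6217, 10610, 7496, 3309 and 8684 in mustard ears. All but the lowest mustard ear were above all dimercaprol-then-mustard ears (log2 fold −1.03 ± 0.24, adjusted p = 0.00219). The octylhomovanillamide-then-mustard ears had 4174, 2426, 4915, 2957 and 3134, with a log2 fold over mustard of −0.99 ± 0.25 (adjusted p = 0.00921). The 6 indomethacin-then-mustard ears ranged from 3359 to 10777 (median 6180), and the gene was not called there. The dimercaprol-then-mustard ears were lower than the indomethacin-then-mustard ears by 0.92 on the log2 scale (adjusted p = 0.0255).

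Brca2 was 265 to 422 (median 305) in dimercaprol-then-mustard ears, against 398 to 650 in mustard ears, and fell by 0.74 on the log2 scale (adjusted p = 0.000188). It had 279, 322, 404, 423 and 342 in octylhomovanillamide-then-mustard ears (log2 fold over mustard −0.59 ± 0.15, adjusted p = 0.00597). In indomethacin-then-mustard ears it was 411 to 603 (median 548), close to mustard. The indomethacin level exceeded both others: dimercaprol minus indomethacin was −0.71 ± 0.14 (adjusted p = 0.000968) and octylhomovanillamide minus indomethacin −0.56 ± 0.14 (adjusted p = 0.0333). Sums of the neutrophil list, in which S100a8 and S100a9 were the largest in mustard ears, were ordered alike. Their medians were 1252 in dimercaprol-then-mustard, 5302 in octylhomovanillamide-then-mustard, 26328 in indomethacin-then-mustard and 33450 in mustard ears. The part of these markers in the Brca2 differences was not tested.

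Xpc moved in the opposite direction. It had 379, 442, 300, 564 and 398 in octylhomovanillamide-then-mustard ears, against 204, 177, 215, 384 and 296 in mustard ears, with 3 of 5 above every mustard ear (log2 fold 0.70 ± 0.17, adjusted p = 0.00406). In dimercaprol-then-mustard ears it was 291 to 445 (median 356), higher than in mustard ears by 0.50 ± 0.16 (adjusted p = 0.0162). In indomethacin-then-mustard ears it was 164 to 342 (median 257). Xpc was higher after dimercaprol than after indomethacin by 0.52 (adjusted p = 0.0229) and higher after octylhomovanillamide than after indomethacin by 0.71 (adjusted p = 0.0194). Rev3l likewise was higher than in mustard ears after dimercaprol (0.66 ± 0.18, adjusted p = 0.00478) and octylhomovanillamide (0.56 ± 0.19, adjusted p = 0.0312).

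Xpa was 157 to 418 (median 308) in dimercaprol-then-mustard ears, against 132 to 198 in mustard ears. It was higher by 0.79 ± 0.19 (adjusted p = 0.00178), the 1 call that remained with the animal as a fixed block (0.81, adjusted p = 0.0435). Ercc5 was 381 to 660.4 (median 465.8) in dimercaprol-then-mustard ears, against 627 to 893 in mustard ears, and was lower by 0.74 (adjusted p = 8.74e-05). It was lower after octylhomovanillamide too, by 0.65 (adjusted p = 0.00203), with all 5 ears below every mustard ear. It was also lower after dimercaprol than after indomethacin, by 0.52 (adjusted p = 0.00732). Mpg was lower after dimercaprol (−0.49) and octylhomovanillamide (−0.43), and Fancc (−0.44) after dimercaprol. The single indomethacin call was Ddb1, at 7855 to 9440 (median 8764) in indomethacin-then-mustard ears against 6029, 7259, 7693, 6944 and 4400 in mustard ears. The groups did not overlap (log2 fold 0.45 ± 0.12, adjusted p = 0.029), and Ddb1 was also higher after dimercaprol (0.38 ± 0.12). The same probe set on array A did not show this, at 0.01 after indomethacin (adjusted p = 0.963) and 0.07 after dimercaprol (adjusted p = 0.671).

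Polk and Rev1 were not called different from mustard ears after any pretreatment. The Rev1 difference was 0.05 after dimercaprol (95% interval by normal approximation −0.22 to 0.31), 0.25 after indomethacin (−0.01 to 0.52) and 0.01 after octylhomovanillamide (−0.27 to 0.29). The Polk difference was −0.40 after dimercaprol (−0.70 to −0.09, adjusted p = 0.0556), 0.01 after indomethacin (−0.30 to 0.32) and −0.32 after octylhomovanillamide (−0.65 to −0.0014, adjusted p = 0.166). These intervals leave room for moderate differences in either gene. Between dimercaprol-then-mustard and octylhomovanillamide-then-mustard ears no repair gene was called (1 at an unadjusted p under 0.05), and no gene of the 14623 was (background 0%).

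Each pretreated group was also set against the 21 methylene chloride ears, which all of these comparisons share. After dimercaprol 4 of 41 genes differed, or 9.76%, against a background of 2.81% (1.70% higher and 1.11% lower). These were Polk (log2 fold 1.03 ± 0.12, adjusted p = 1.16e-07), Rev1 (0.74 ± 0.10, adjusted p = 4.88e-06), Ercc5 (0.64 ± 0.10, adjusted p = 5.02e-05) and, lower, Xpc (−0.49 ± 0.12, adjusted p = 0.0159). After octylhomovanillamide 3 of 41 differed, or 7.32%, against a background of 2.51% (1.63% higher and 0.875% lower): Polk (1.10 ± 0.13, adjusted p = 1.47e-07), Ercc5 (0.74 ± 0.11, adjusted p = 1.29e-05) and Rev1 (0.70 ± 0.11, adjusted p = 4.15e-05). By p, Polk ranked 10 of 14623 genes after dimercaprol and 9 after octylhomovanillamide, Rev1 25 and 48, and Ercc5 39 and 36. The gene set was small, and 4 or 3 calls do not give a test of the group.

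The single ears bear the same order. Polk was 365 to 508 (median 428) in 6 dimercaprol-then-mustard ears and 439, 562, 621, 403 and 290 in octylhomovanillamide-then-mustard ears, against 136 to 263 in methylene chloride ears. Every one of these 11 pretreated ears was above every methylene chloride ear. Rev1 was 278 to 396 (median 352) in dimercaprol-then-mustard ears and 382, 317, 352, 367 and 250 in octylhomovanillamide-then-mustard ears, against 147 to 268 in methylene chloride ears. One octylhomovanillamide-then-mustard ear reached into the methylene chloride range. Ercc5 had 470, 570, 591, 513 and 408 in octylhomovanillamide-then-mustard ears, against 230 to 402 in methylene chloride ears, with no overlap, and 1 of 6 dimercaprol-then-mustard ears overlapped.

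With the animal as a fixed block, Polk kept its call after dimercaprol (1.01, adjusted p = 0.0035) while Rev1 (0.70, adjusted p = 0.129), Ercc5 (0.53, adjusted p = 0.267) and Xpc (−0.50, adjusted p = 0.451) did not. All 3 octylhomovanillamide calls were kept under the block. The p53 target list showed 13 of 16 genes higher after dimercaprol (median log2 fold 0.80) and 12 of 16 after octylhomovanillamide (0.95), with none lower in either. The backgrounds were 1.70% higher and 1.11% lower after dimercaprol, and 1.63% and 0.875% after octylhomovanillamide.

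**Figure D3:**
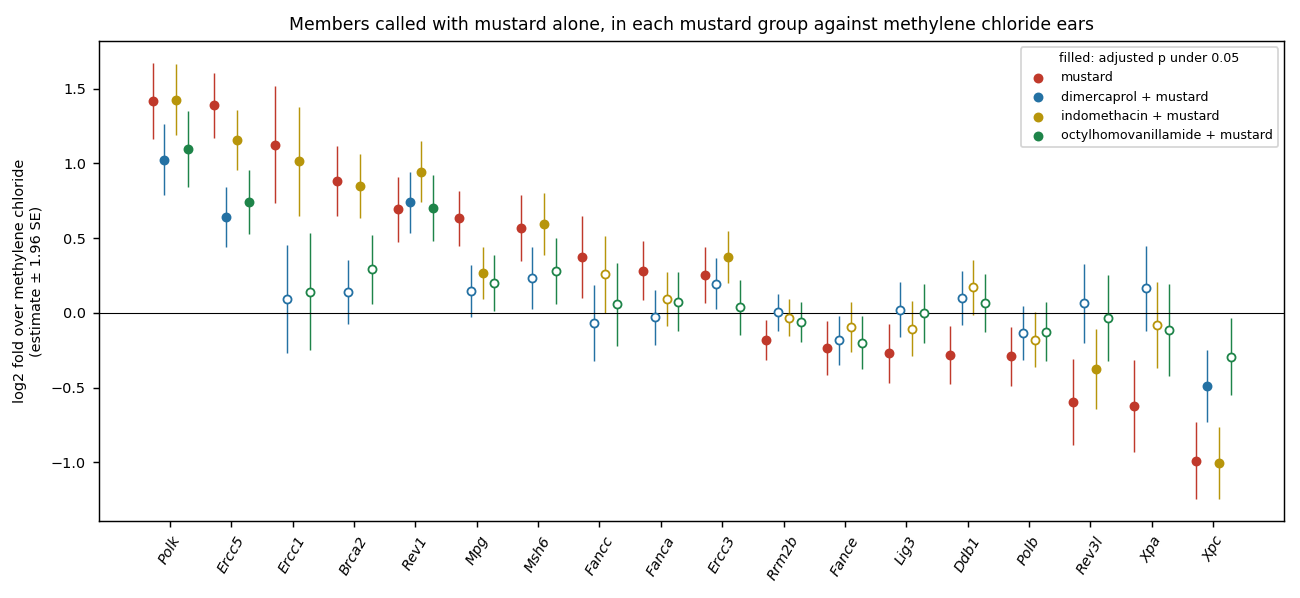
Log2 fold over methylene chloride ears in each mustard group for the 18 genes called with mustard alone, with bars of the 95% interval. Filled points have an adjusted p under 0.05. Polk, Rev1 and Ercc5 are filled in all 4 groups, with folds from 0.64 to 1.43, while Ercc1, Brca2 and Mpg are filled in mustard and indomethacin-then-mustard ears but not in the other 2.

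After indomethacin 16 of 41 genes differed from methylene chloride ears, or 39.0%, 10 higher and 6 lower, against a background of 31.8% (14.3% higher and 17.5% lower). Polk was 366 to 844 (median 598) in indomethacin-then-mustard ears, against 136 to 263 in methylene chloride ears (log2 fold 1.43 ± 0.12, adjusted p = 2.6e-12). Ercc5 was 549 to 817 (median 670.5), against 230 to 402 in methylene chloride ears (1.16 ± 0.10, adjusted p = 7.72e-12). Neither gene had an ear within the methylene chloride range. Ercc1 (1.01 ± 0.19), Rev1 (0.94 ± 0.10), Brca2 (0.85 ± 0.11) and Msh6 (0.59 ± 0.11) were also higher, and Rad18, Ercc3, Mpg and Ercc8 rose by 0.37 or less.

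Xpc was 164 to 342 (median 257) in indomethacin-then-mustard ears, against 418 to 729 in methylene chloride ears, again with no overlap (log2 fold −1.005 ± 0.12, adjusted p = 1.97e-08). Genes called lower here but not with mustard alone were Ung, the uracil glycosylase (−0.74 ± 0.18), Xrcc3 of homologous recombination (−0.69 ± 0.14), Fancl (−0.51 ± 0.11) and Ddb2 (−0.42 ± 0.12). Indomethacin-then-mustard minus mustard was not called for any of these 4. Other probe sets of Xrcc3 and Ddb2 were called lower with mustard alone. Fancl was higher after dimercaprol than after indomethacin (0.42 ± 0.13, adjusted p = 0.0339). In all, 5 genes differed between dimercaprol-then-mustard and indomethacin-then-mustard ears (background 8.86%, 5.03% higher and 3.83% lower) and 2 between octylhomovanillamide-then-mustard and indomethacin-then-mustard ears (background 1.56%, 0.821% higher and 0.739% lower), all named above. With the animal as a fixed block these counts were 1 and 0, and the 16 indomethacin calls against methylene chloride became 10. Without rescaling the split of those 16 became 5 higher and 1 lower. That of dimercaprol against indomethacin, 2 higher and 3 lower, became 3 and 1 without rescaling and 1 and 4 after quantile normalization.

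Animals without mustard were used to compare each drug with ethanol. Each ethanol ear was the opposite ear of a drug-treated animal, and the fit had no animal term. None of 36 repair genes was called by limma for dimercaprol, indomethacin or octylhomovanillamide against ethanol, or for ethanol against naive, with 2, 0, 2 and 1 at an unadjusted p under 0.05 (background 0% of 9264 genes in each). Groups of 3 to 5 ears limit what these comparisons can detect. Polk had 227, 211, 274 and 201 in dimercaprol ears, 267, 343, 265 and 98.2 in indomethacin ears and 268, 252, 234, 229 and 252 in octylhomovanillamide ears, against 309, 295 and 207 in ethanol ears. These ranges overlap throughout. Xpc had 212, 440, 399 and 429 in dimercaprol ears, 362, 544, 433 and 411 in indomethacin ears and 462, 291, 382, 404 and 326 in octylhomovanillamide ears, against 399, 496 and 384 in ethanol ears, again with overlap.

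**Figure D4:**
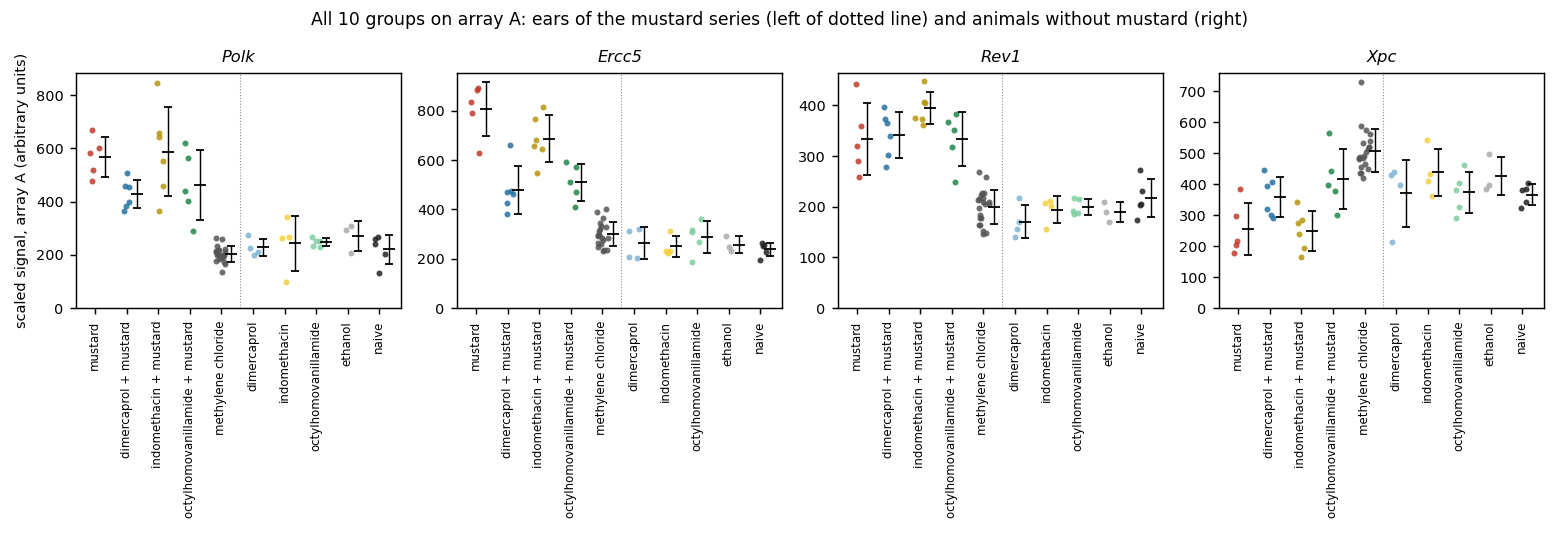
Scaled signal on array A of Polk, Ercc5, Rev1 and Xpc in all 10 groups, with dots for single ears and black bars for mean ± SD. Right of the dotted line are animals without mustard. Polk reaches 290 to 844 in the 4 mustard groups and 98.2 to 343 in the drug, ethanol and naive groups.

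Difference of differences, the pretreated minus mustard change less the drug minus ethanol change, was called for 5 of 35 genes with dimercaprol, 2 higher and 3 lower (background 9.72%, 5.80% higher and 3.92% lower). Rev3l (1.08 ± 0.29) and Xpa (0.96 ± 0.30) were higher, and Msh6 (−0.77 ± 0.23), Ercc5 (−0.74 ± 0.23) and Brca2 (−0.70 ± 0.23) lower. Mustard ears are labelled without ethanol, so ethanol does not cancel in this difference, whose parts come from separate sets of animals. None was called without mustard ears 5 and 37, and 2 higher and 0 lower were called without rescaling. Limma called none for indomethacin (2 at an unadjusted p under 0.05, background 0.0670%, 0.0335% in each direction) and none for octylhomovanillamide (7 at an unadjusted p under 0.05, smallest adjusted p = 0.0528, background 2.12%, 1.55% higher and 0.570% lower).

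Methylene chloride ears differed from naive ears in 11 of 35 repair genes, 3 higher and 8 lower, or 31.4%, against a background of 22.0% of all genes (6.77% higher and 15.3% lower). Of the 8 lower, 5 belong to the Fanconi anemia pathway. The split was 7 higher and 4 lower after quantile normalization and 2 and 0 without rescaling, where the direction of Fance turned. Fancc, Fanca, Ercc8 and Lig1 were still called lower after quantile normalization, and Brca1, Fancg, Fancf and Fance were not. Fancc had 124 to 290 (median 219) in 21 methylene chloride ears, against 360.5, 666, 406, 596 and 575 in naive ears. The groups did not overlap (log2 fold −1.13 ± 0.18, adjusted p = 3.68e-05, rank 19 of 8952 genes by p). Fanca had 247 to 377 (median 317) in methylene chloride ears, against 459, 510, 579, 583 and 502 in naive ears, without overlap (−0.67 ± 0.13, adjusted p = 0.000249).

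Brca1 had 84.9 to 218.5 (median 142) in methylene chloride ears, against 222, 173, 257, 229 and 222 in naive ears, with 1 naive ear inside the methylene chloride range (−0.63 ± 0.18, adjusted p = 0.0106). Also lower were the replicative ligase Lig1 (−0.49), the core complex genes Fancg (−0.48), Fancf (−0.42) and Fance (−0.33), and the transcription-coupled repair gene Ercc8 (−0.43). Rev3l had 516 to 930 (median 655) in methylene chloride ears, against 436, 530, 420, 381 and 381 in naive ears (0.63 ± 0.18, adjusted p = 0.0116), and Mpg (0.45) and Polb (0.38) were also higher.

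For Fancc, Fanca and Rev3l, the group means separated by the set of animals. Fancc averaged 204 to 282.5 in the 5 groups of the mustard series, and 477, 576 and 549 in dimercaprol, indomethacin and octylhomovanillamide ears, 494 in ethanol ears and 521 in naive ears. Fanca averaged 313 to 391.9 in the mustard series, against 500 to 593 in the 5 groups without mustard. Rev3l averaged 472 to 706 in the mustard series, against 334 to 459 in those 5 groups. Not every gene called did so: Mpg averaged 410.02 in methylene chloride ears, against 412, 429.8 and 429 in dimercaprol, indomethacin and ethanol ears. The solvent, mustard on the opposite ear of most of these animals and the set of animals cannot be told apart here.

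**Figure D5:**
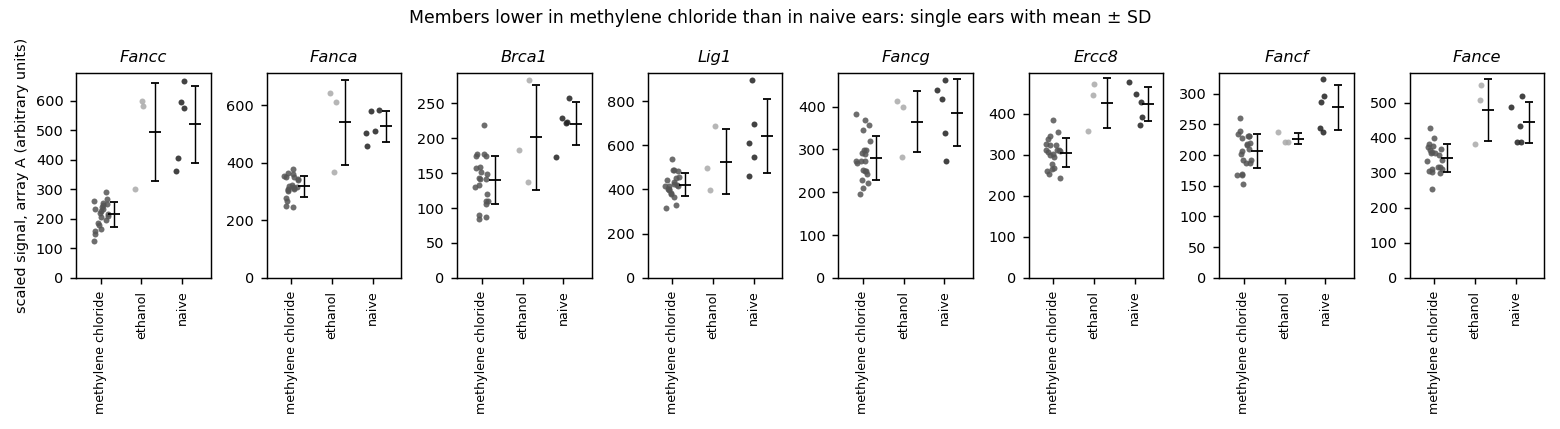
Scaled signal on array A of the 8 repair genes lower in methylene chloride ears than in naive ears, with ethanol ears beside them; dots are ears and black bars mean ± SD. Fancc and Fanca show no overlap between the 21 methylene chloride and 5 naive ears.

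Across the 21 methylene chloride ears, 35 repair genes on array A were set against the mean of 19 cell cycle genes of the same ear. Ung had Pearson's r = 0.74 (permutation p = 0.0001, adjusted p = 0.0035) and Spearman's rho = 0.77 (permutation p = 0.00016, adjusted p = 0.0056). Without the 2 ears farthest from the median, r was 0.64 (permutation, adjusted p = 0.0941), and the gene was no longer called. No other gene of the 35 was called by this permutation test. The next were Rev3l (r = 0.56, adjusted p = 0.143) and Msh6 (r = 0.53, adjusted p = 0.182). Genes outside the 35 were not tested in this way, so no background share stands beside this count.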

How the data were processed

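Signals were deposited by the authors as intensity values of probe sets on a linear scale, computed with MAS5 per the submitters' processing notes; its settings are not given in the sources used here. Per the labels' protocols, 10 µg of total RNA from an 8 mm biopsy was labelled. Doses and groups come from the labels. Precision is limited by how many ears each group has.

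Each array was scaled so that the mean after trimming 2% at each end was 500, and log2(scaled signal + 16) was analysed, so fold changes of low signals are understated. Kept probe sets averaged 100 or more over the ears of a fit after scaling, and arrays A and B were fitted apart. Linear models used limma 3.58.1 (lmFit, eBayes with trend) in R 4.3.3, with 2-sided p adjusted by Benjamini-Hochberg over all probe sets kept on that array and a threshold of 0.05. The mustard series shared 1 fit, the animals without mustard another (naive ears of an animal averaged), and all array A ears were fitted together for methylene chloride against naive and the differences of differences. The probe set of a gene is the one with the highest mean deposited signal over the 43 ears on both arrays, whose signals agree in level (median log2 ratio 0.06 over 100 shared probe sets). Probe sets with 1 gene numbered 20393 of 22690 on array A and 14674 of 22575 on array B; 691 and 245 had several and 1606 and 7656 none, and those were not named. Symbols are those of the platform annotation. Genes called in mustard ears with a log2 fold of at least 0.5 in size, and the 4 largest calls of other comparisons, have ear values; lists name up to 3 calls each way. Correlations used 100000 permutations (SciPy 1.17.1, Python 3.11.15). The code was tested on simulated data. Members and lists were chosen with earlier results of these data known.

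Left and right ears share the animal's number: over 17 pairs on array A, deviations from group means correlated at 0.173 on average (-0.100 to 0.453), against -0.005 between animals. Alternatives were probe set choice, scaling, pseudocount, filter, eBayes trend, animal block (fixed or random), Gapdh and brightness covariates, and ears left out. Shares of all genes called were computed for the main settings only. Leaving out ears 5 and 37 in the array A fit was added after seeing the data.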

Additional observations from a re-analysis of the deposited data

Results flagged for a closer look

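Single ears stood far from the rest of their group in 5 of 67 groups examined, and chance alone flags about 1 in 20. Rev3l was 903.4 in mustard ear 36, against 331.1 to 404.5 in the other 4. Ear 36 also had the lowest p53 target sum of the mustard ears, 40026 against 56217 to 65551 in the others. A link between these was not tested. Xpc was 212.0 and Mpg 497.2 in the dimercaprol ear of animal 506, against 398.5 to 440.4 and 377.3 to 391.3 in the other 3. Ercc5 was 312.0 in the indomethacin ear of animal 514, against 223.3 to 233.4, and Rev1 was 155.9 in that of animal 515, against 202.0 to 211.9.

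The change with dimercaprol and its ethanol in mustard ears differed from the dimercaprol minus ethanol change in ears without mustard for 5 genes. These were Rev3l (1.08), Xpa (0.96), Brca2 (-0.70), Ercc5 (-0.74) and Msh6 (-0.77), as differences of log2 folds called by limma. Without mustard ears 5 and 37 these were 0.86, 0.89, -0.59, -0.64 and -0.77 with adjusted p between 0.0798 and 0.190.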

How the results depend on the processing

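Of 387 recomputed counts of calls, 343 stayed within 1.5 times the reported count, and of 1485 recomputed folds of called repair genes 1284 kept direction and call, 191 lost the call and 10 reversed. Polk, Ercc5, Ercc1 and Xpc kept their mustard call under all 22 alternatives. Rev1 and Xpa kept theirs under the 20 in which they were tested. They fell below the minimum signal without rescaling and with a minimum of 300. Without rescaling the median of all mustard folds was negative, with a size of 0.61 on array A and 0.66 on array B. With rescaling it was -0.01 on array A and 0.14 on array B. Without rescaling counts became 14, 11 and 12 for dimercaprol, indomethacin and octylhomovanillamide against mustard. They became 2 and 6 for dimercaprol and indomethacin against methylene chloride, 0 for octylhomovanillamide against indomethacin, 2 for methylene chloride against naive and 2 for the dimercaprol difference of differences. Reversed there were Ercc3 (-0.31), Fanca (-0.29), Msh6 (-0.039), Rad23b (-0.058), Gtf2h4 (-0.20), Ube2a (-0.42) and Slx4 (-0.16) with mustard, and Fance (0.0025) in methylene chloride against naive. Dimercaprol and octylhomovanillamide against mustard gave 0.12 and 0.11 for Brca2, 0.13 and 0.074 for Ercc5 and 0.37 and 0.27 for Mpg. Brightness as a covariate gave 10 with mustard, 2, 0 and 0 for dimercaprol, indomethacin and octylhomovanillamide against mustard and 3 for dimercaprol against indomethacin; the Gapdh ratio gave 4, 0 and 0 against mustard and 1 for octylhomovanillamide against indomethacin. Without mustard ears 5 and 37 there were 10 with mustard, 3, 0 and 0 for the drugs in the same order, and 0 for the dimercaprol difference of differences. The fixed animal block gave 1, 0 and 0 for the drugs against mustard, and 1 and 10 for dimercaprol and indomethacin against methylene chloride. It gave 1 for dimercaprol against indomethacin and 0 for octylhomovanillamide against indomethacin. It moved no other count by over 1.5 times. The random animal block lost no call of a repair gene in the mustard series. Calling a gene from any probe set gave 14 and 2 for dimercaprol and indomethacin against mustard, and quantile normalization 0 for indomethacin. The octylhomovanillamide difference of differences gave 1 under quantile normalization, 1 with a pseudocount of 64 and 3 with a minimum of 300. Leaving out 1 ear at a time gave 11 to 20 with mustard, 8 to 12, 0 to 3 and 4 to 8 for dimercaprol, indomethacin and octylhomovanillamide against mustard, and 5 to 7 and 0 to 3 for dimercaprol and octylhomovanillamide against indomethacin. Correlated genes numbered 16 without rescaling, where array brightness stays in both values, and 0 without the 2 farthest ears. The share of all genes called was not computed for these alternatives, and the causes were not tested.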
